A study of Mus musculus with 31 samples.

Results

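The comparison described here is that of CRC mice after 7 days with CRC mice after 2 days, which is the time course of the colitis and cancer model without the food additive E171. Its members were taken by their labels and are 8 of the 31 arrays of the series, 4 from each day. All 8 were BALB/c mice that had received azoxymethane (AOM, a carcinogen that alkylates DNA) and dextran sodium sulphate (DSS, a polysaccharide in the drinking water that injures the colonic epithelium), with water as the gavage vehicle. Per the methods AOM was injected before the start and DSS was given only in the first days, so that DSS had ended between both time points. Each day held 2 females and 2 males, and RNA from the distal colon of each mouse was hybridised to its own one-colour Agilent array. The other 23 arrays, which entered the fit to share its estimate of the spread, are those of CRC mice of 14 and 21 days and of CRC + E171 mice, which received E171 at 5 mg/kg bw/day by gavage in addition to AOM and DSS.

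DSS colitis begins in the surface epithelium. Absorptive colonocytes and mucus-secreting goblet cells are lost, bacteria reach the lamina propria, and epithelial cells, fibroblasts and macrophages release chemokines that draw neutrophils out of the blood. Cytokines such as interleukin 6 and interleukin 11 act on epithelium and stroma, metallopeptidases cut the matrix, and the crypts regrow once DSS ends.

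A level below is the log2 of a gene's signal minus the log2 of the 75th percentile of its array, averaged over the probes of the gene, so that levels of one gene can be compared between arrays and levels of different genes cannot. A difference or log2 fold change is 7 days minus 2 days in these units. A DEG is a gene that changed 1.5-fold or more on the linear scale with an unadjusted p under 0.05, and a gene called is one with a Benjamini-Hochberg adjusted p under 0.05 in limma over the 19797 genes tested. A list score is the median over the genes of a list on one array, each gene taken relative to its mean over the 31 arrays. Levels of Xist and of the Y-linked Kdm5d and Uty separated the labelled males from the labelled females on all 8 arrays, and between 70.2 and 74.6% of the spots of these arrays were well above background.

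Transcripts of other tissues differed among the arrays. The array of male 1 at 7 days had a list score of 7.43 for squamous epithelium (keratins and cornified envelope genes) and of 7.43 for skeletal muscle, and female 2 at 7 days had 0.45 and 2.30. The other 6 arrays ranged from -1.12 to -0.52 and from -0.67 to 0.00. Pancreatic acinar genes had scores of 5.86 in male 2 at 2 days, 7.66 in female 1 at 7 days and 8.65 in male 2 at 7 days, and of 0.61 or less on the other 5 arrays. Male 1 of 7 days thus carried squamous and muscle transcripts, and male 2 of 7 days pancreatic ones with squamous and muscle scores of -0.85 and -0.64. Colonic epithelium was present at 2 days, where Epcam, an adhesion molecule of epithelial cells, was at 4.98 and 4.62 in the females and 5.07 and 4.71 in the males.

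When the 4 arrays of each day were compared without regard to sex, 2656 DEG were found, 13.4% of the genes tested, with 1428 up-regulated (7.21%) and 1228 down-regulated (6.20%) after 7 days. No gene was called (0%, smallest adjusted p = 0.197, limma), while 3404 genes had an unadjusted p under 0.05. For 938 genes (4.74%) the arrays of 7 days did not overlap those of 2 days, and 500 of these were DEG. The 7-day males were unlike the other mice and each other, whereas the 7-day females were alike. Spearman's correlation across genes at 7 days was 0.979 between the arrays of both females, 0.879 between those of both males, and 0.833 between female 1 and male 1. The number of DEG was 853 without 7-day male 1 and 4348 without 7-day female 1. Without that female 1582 genes were called, and 608 without 7-day female 2.

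Since no gene was called, the 10 largest increases and the 10 largest decreases were taken from the DEG without overlap between the days. By that choice each of the 20 has an exact permutation p of 0.0286 (two-sided), the smallest that the 70 splits of 8 arrays allow, and their limma adjusted p-values ranged from 0.197 to 0.283. The increases included those of Cxcl2, Krt6a, Elovl4, Aldoart1, Cst6, H19, Itgbl1, Six2 and Sec14l4. Several were far higher on the array of 7-day male 1, the one with squamous and muscle transcripts. Cst6, a cystatin of cornified epithelium, was at 7.34 there, at -3.30 and -3.32 in the females and -2.82 in the other male of that day, against -4.05 to -3.47 at 2 days. Krt6a, a keratin of stratified epithelium, was at 7.01 in that male and 1.01 in 7-day female 2, and at -3.52 to -2.09 at 2 days. Elovl4, which elongates very long chain fatty acids, was at 5.41 in that male and at -3.50 in the other. The part of those transcripts in these increases was not tested.

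H19, an imprinted noncoding RNA, was higher in all 7-day mice. Its levels were -3.86 and -4.10 in the females and -3.77 and -4.65 in the males at 2 days, and -2.87 and -1.30 in the females and 2.26 and -1.82 in the males at 7 days (log2 fold change 3.17, SE 0.79, limma adjusted p = 0.197). Aldoart1, an aldolase A retrogene, was not well above background on any 2-day array and was at least 2.62-fold higher at 7 days, with levels of -5.81 and -5.91 in females and -3.50 and -4.55 in males. Cxcl2 and Itgbl1 were not well above background at 2 days either and were at least 6.6-fold and 4.75-fold higher over the 4 mice. In the 7-day females Cxcl2 was again not well above background, at -7.55 and -7.95.

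The decreases were those of Sectm1b, Retnlb, Fabp1, Alb, Cox7b2, Sectm1a, Capn13, Krtap13, Ms4a12 and Pla2g2c. Retnlb encodes RELM-beta, a goblet cell protein, and was at 3.48 and 4.55 in the females and 1.89 and 2.62 in the males at 2 days. After 7 days it was at 1.54 and -0.32 in the females and -4.75 and -0.95 in the males, lower in both sexes (log2 fold change -4.25, SE 1.80, limma adjusted p = 0.238). Fabp1, the liver-type fatty acid binding protein, not well above background in the 7-day females, ranged from -3.72 to -0.40 at 2 days and from -6.45 to -4.80 at 7 days, and Alb, albumin, from -1.69 to 0.95 and from -4.59 to -2.20. The paralogs Sectm1a and Sectm1b share sequence, so their probes may read both. Sectm1a was at -0.25 to 0.06 at 2 days, at -1.37 and -1.84 in the 7-day females and at -3.49 and -5.03 in the 7-day males. Sectm1b was at 2.68 to 3.23 at 2 days, at 2.44 and 2.17 in the females and at -5.80 and -4.03 in the males, and the change differed between the sexes by -6.76 (SE 1.05, limma adjusted p = 0.0029).

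**Figure D1:**
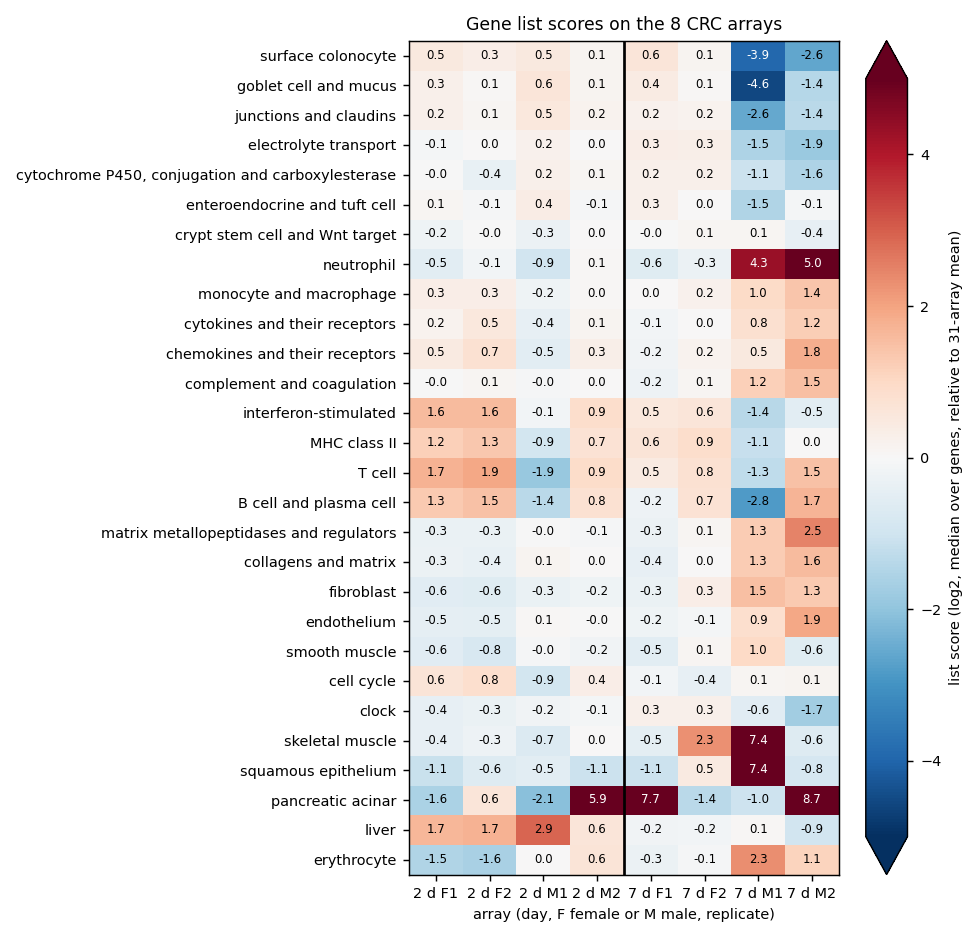
List scores (log2 relative to the mean of the 31 arrays) of 28 gene lists, as rows, on the 8 CRC arrays, as columns. The 7-day males M1 and M2 stand apart in the epithelial and neutrophil rows, with neutrophil scores of 4.31 and 4.99, whereas the 7-day females F1 and F2 have -0.60 and -0.31.

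Whether both sexes changed alike was tested directly, as the change in males minus the change in females in a fit of 16 groups by sex. The change differed between the sexes for 1084 genes (limma, smallest adjusted p = 1.0e-04), with 309 more upward in males (1.56%) and 775 more downward (3.91%). The upward share was 28.5%, and 40.0% with normexp background correction. In males alone 1460 genes were up-regulated (7.37%) and 1998 down-regulated (10.1%) by adjusted p. In females alone 0 genes (0%) were called, with 409 at an unadjusted p under 0.05. Of the 1084 genes, 1075 were also called in males, 99.2% of the first set and 31.1% of the second. Both contrasts use the same male arrays in the same fit, so this overlap is largely built in.

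Each combination of day and sex held 2 mice, so these tests compare 2 with 2 arrays, with a spread pooled over the 31. Each slide with 7-day CRC arrays held 1 male and 1 female of that day, and number 1 of both days was scanned on a different day from number 2. No slide held CRC arrays of both 2 and 7 days, so day and slide cannot be told apart on these 8 arrays. The count that differed between the sexes was 1825 without 7-day male 2. It was 173 without 2-day male 1, 293 without 7-day female 1, 325 without 2-day female 2, 380 without 2-day female 1 and 428 without 7-day female 2, and was 700 when only the 8 arrays were fitted. In males the number called was 4071 without 7-day male 2, 1179 without 2-day male 1 and 2247 without 2-day male 2. The list counts below moved with single arrays too, most often without 2-day male 1. Of all genes 2.01% rose and 3.95% fell in males without 2-day male 1, 4.08% and 7.27% without 2-day male 2, 4.5% and 7.29% without 7-day male 1, and 9.92% and 10.6% without 7-day male 2. Counts below with an array left out belong to these shares, and the shares beside full counts to all 8 arrays. Of 21 genes named for a difference between the sexes 10 passed whichever of the 8 arrays was left out: Sectm1b, Clca1, Cdh1, Mep1a, Cxcl1, Ccl2, Il11, Mmp13, Dbp and Ptx3. Of 62 genes named for a change in males 35 passed without 2-day male 1, 43 without 7-day male 1, 47 without 2-day male 2 and 55 without 7-day male 2. Slc26a3, Mep1a, Hao2, Sult1d1, Cyp2c68, Atoh1, Scnn1g and Pla2g2c were well above background in only 1 of the 7-day males, so that their lower level, and each difference that rests on it, is set by a signal at background.

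**Figure D2:**
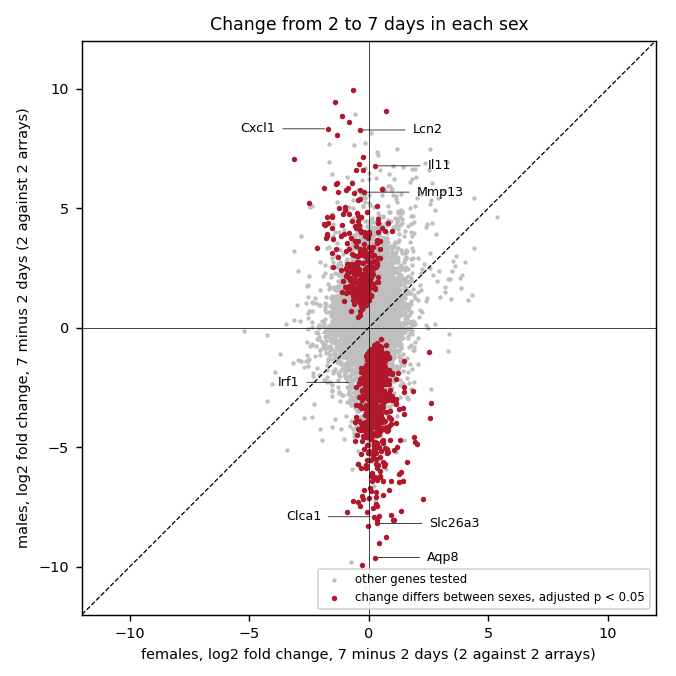
Log2 fold change from 2 to 7 days of each gene in females (horizontal axis) and in males (vertical axis), 2 against 2 arrays in each. The coloured points are the 1084 genes whose change differed between the sexes (limma, adjusted p under 0.05), and they spread along the vertical axis.

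Surface colonocytes, the absorptive cells at the top of the crypt, carried large losses in males. Of 25 of their genes tested 15 fell in males and none rose, where 10.1% of all genes fell, and for 11 the change differed between the sexes, all lower in males, where 3.91% of all genes were. That count was 1 without 2-day male 1 and from 2 to 7 without any other 2-day array or either 7-day female. The median log2 fold change was -4.12 in males and 0.15 in females, and over all genes 0.0056 and 0.047. Aqp8, a water channel of these cells, was at 6.35 and 5.88 in the females and 6.10 and 5.96 in the males at 2 days, and at 6.40 and 6.30 in the females and -3.69 and -3.50 in the males at 7 days. Both 7-day males lay far below the other 6 mice, and the change differed between the sexes by -9.86 (SE 2.06, limma adjusted p = 0.011), a test not passed without 2-day male 1, 2-day female 2 or 7-day female 1. In bulk tissue fewer cells of a type and less RNA per cell cannot be told apart.

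Slc26a3, the chloride/bicarbonate exchanger that absorbs salt, was at 1.41 to 2.27 at 2 days and 1.75 and 1.79 in the 7-day females, but at -7.59 and -4.49 in the 7-day males. Its difference between the sexes was -8.51 (SE 2.24, limma adjusted p = 0.035), which also passed without 7-day male 2 but was lost when any other of the 8 arrays was left out (adjusted p from 0.064 to 0.132). The carbonic anhydrases Car1 and Car4 changed by -6.87 and -5.58 in males (limma adjusted p = 3.4e-04 and 0.014), and for Car4 the test between the sexes was not passed (adjusted p = 0.125), nor was its fall in males without either 2-day male or 7-day male 1. Guca2a, which encodes guanylin, Krt20, a keratin of mature surface cells, Vil1, villin of the brush border, and Slc5a8, a butyrate transporter, also fell in males, by a log2 fold change of -5.87, -2.93, -4.28 and -5.46. Hsd3b3, a hydroxysteroid dehydrogenase, was not well above background in either 7-day male and was at least 63.4-fold lower than in the 2-day males. Without 7-day male 1, 12 of the 25 genes fell in males, with a median of -2.86, and Guca2a and Vil1 had -3.64 and -2.41.

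Goblet cells make the mucus layer, and 15 of 24 of their genes fell in males while none rose, where 10.1% and 7.37% of all genes did. The change of 9 differed between the sexes, all lower in males (3.91% of all genes), but of 1 or 2 without either 2-day female, 2-day male 1, 7-day female 1 or 7-day male 1, of 4 without 7-day female 2 and of 17 without 7-day male 2, and the median was -3.91 in males and 0.12 in females. Clca1, a secreted mucus protein, was at 6.35 to 6.84 at 2 days, at 6.71 and 6.94 in the 7-day females and at -1.56 and -1.15 in the 7-day males (difference between the sexes -8.11, SE 1.48, limma adjusted p = 0.0057). Muc2, the gel-forming mucin of the colon, was at 3.42 to 4.08 at 2 days, at 3.77 and 3.15 in the 7-day females and at -2.76 and 0.95 in the 7-day males, so that both males differed from each other by more than in Clca1. Muc2 fell in males (-4.65, SE 1.30, limma adjusted p = 0.02), but its change did not pass the test between the sexes (adjusted p = 0.163). Fcgbp, Tff3, the trefoil factor of goblet cells, and Atoh1, the transcription factor of the secretory lineage, also fell, with -7.13, -5.25 and -7.16. Without 7-day male 1, 8 of the 24 fell, Tff3 and Atoh1 had -3.48 and -4.18, and Muc2 did not pass (-2.80, limma adjusted p = 0.223), as it did not without either 2-day male.

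**Figure D3:**
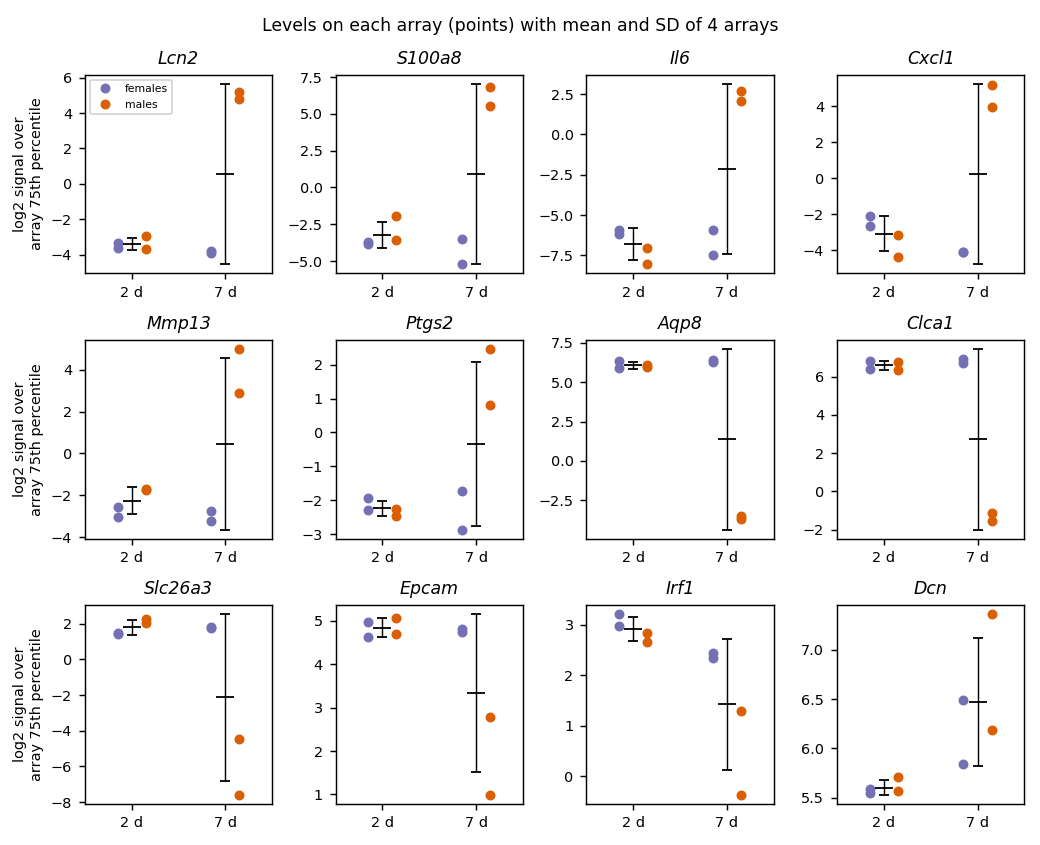
Levels (log2 signal over the 75th percentile of the array) of 12 genes on the 8 arrays at 2 and 7 days, females and males in separate colours, with the mean and SD of the 4 arrays of a day. In Lcn2, for example, the 7-day males lie at 4.77 and 5.18 and all other mice between -3.92 and -2.93.

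Junctions seal the epithelium, and 13 of 19 junction and claudin genes fell in males, where 10.1% of all genes did. Cldn5, a claudin of endothelium, passed upward (7.37% of all genes), but its call was lost whichever of the 8 arrays was left out. For 10 the change differed between the sexes, all lower in males, as for 3.91% of all genes (6 without 2-day female 2, 5 without 7-day female 1 and 2 without 2-day male 1). Cdh1, E-cadherin, was at 4.34 to 4.82 at 2 days, at 4.37 and 4.31 in the 7-day females and at 1.80 and 2.41 in the 7-day males (difference between the sexes -2.54, SE 0.44, limma adjusted p = 0.0048). Epcam was at 4.82 and 4.75 in the 7-day females and at 0.99 and 2.78 in the 7-day males. Ocln, occludin, changed by -2.74 in males, and Tjp1, which encodes ZO-1, by -1.10, which passed in males with all 8 arrays only, and the test between the sexes gave an adjusted p of 0.172. The list median was -2.21 in males and 0.11 in females.

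Of 25 electrolyte transport genes 12 fell in males, against 10.1% of all genes, and 1 rose, Aqp1, a water channel of endothelium and red cells that did not pass without either 2-day male or 7-day male 1. Cftr, the chloride channel of the crypt, was at -0.63 to -0.02 at 2 days, at 0.04 and -1.14 in the 7-day females and at -5.54 and -3.54 in the 7-day males. Hsd11b2, which shields the mineralocorticoid receptor from glucocorticoids, was at 0.40 to 1.0 at 2 days, at 1.32 and 1.02 in the 7-day females and at -5.60 and -5.13 in the 7-day males. The subunits of the epithelial sodium channel did not all pass, since Scnn1a fell (-1.90, limma adjusted p = 0.0026, and -1.04 without 7-day male 2), while Scnn1b had -0.32 (adjusted p = 0.768) and Scnn1g -2.58 (adjusted p = 0.352).

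Among 49 genes of cytochromes P450, conjugation and carboxylesterases, which detoxify luminal compounds, 22 fell in males (10.1% of all genes) and 2 rose, Cyp1b1 and Cyp26b1 (7.37% of all genes). None rose without 2-day male 1 or 7-day male 1, and 6 without 7-day male 2. The change of 17 differed between the sexes, 16 of them lower in males (3.91% of all genes), and these were from 5 to 10 without 2-day male 1 or any one female. Sult1d1, a sulphotransferase, changed by -8.29 in males and -0.04 in females, and Cyp2c68 by -8.03 and 1.02. The Cyp2c genes are near copies of each other, and their probes may share transcripts. Of 26 genes of fatty acid oxidation and ketogenesis 6 fell in males and 3 rose, among them Pdk4, a kinase that spares pyruvate (4.43, limma adjusted p = 0.012). Of all genes 10.1% fell and 7.37% rose. The 6 were 2 without 2-day male 1, and Pdk4 did not pass without 2-day male 1 or without 7-day male 1 (2.46, adjusted p = 0.173).

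Mep1a, Hao2 and Ptx3 were chosen after their values were seen, as examples of genes with large differences between the sexes, and they are not the largest. Mep1a, a brush border metalloprotease, was at 3.13 to 3.52 at 2 days, at 3.82 and 3.67 in the 7-day females and at -7.38 and -3.98 in the 7-day males (difference between the sexes -9.45, SE 1.46, limma adjusted p = 0.0029). Hao2, a hydroxyacid oxidase, differed by -9.64 (SE 2.39, adjusted p = 0.026), a call lost when any of the 8 arrays but 7-day male 2 was left out (adjusted p from 0.054 to 0.11). Ptx3, a pentraxin of the acute phase, was at -7.16 to -5.62 at 2 days, at -5.83 and -6.40 in the 7-day females and at 0.65 and 0.83 in the 7-day males, and was well above background in only 1 of the 7-day females.

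Genes of the other epithelial lineages are set against the 7.37% of all genes that rose in males and the 10.1% that fell. Of 21 crypt stem cell and Wnt target genes 2 rose (Smoc2 and Cd44) and 2 fell (Rnf43 and Sox9), and neither Smoc2 nor Cd44 passed without 2-day male 1 or without 7-day male 1, nor Sox9 without 2-day male 1 or 7-day male 2. Lgr5, the marker of crypt base stem cells, had a log2 fold change of 0.03 in males and -0.12 in females. Of 18 enteroendocrine and tuft cell genes 1 rose in males, Cck, and 1 fell, Il17rb. Without 7-day male 2, 5 fell, among them Il17rb, whose call was lost when any other of the 8 arrays was left out. Cck did not pass without 2-day male 2. The list score was -1.52 in 7-day male 1 and -0.10 in 7-day male 2. Of 22 genes of wound-associated epithelium 3 rose in males, Ereg, Plaur and Il33 (5 without 7-day male 2), while Lamb3 and Krt19 fell.

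Neutrophils are early arrivals in inflamed mucosa and carry calprotectin and collagenase. Of 19 of their genes tested 14 rose in males and none fell, where 7.37% of all genes rose, and for 8 the change differed between the sexes (1.56% of all genes upward). Without 2-day male 1, 7 rose and 1 differed, and from 2 to 5 differed without any one female. The median was 5.62 in males and -0.36 in females. S100a8, a calprotectin subunit, was at -3.84 and -3.71 in the females and -3.55 and -1.95 in the males at 2 days, and at -5.20 and -3.49 in the females and 6.84 and 5.52 in the males at 7 days. It rose in males by 8.93 (SE 2.32, limma adjusted p = 0.013; 0.077 without 7-day male 1 and 0.111 without 2-day male 1), and the test between the sexes gave an adjusted p of 0.1. Mmp8, neutrophil collagenase, differed between the sexes by 5.25 (SE 1.14, limma adjusted p = 0.013), and Clec4d, a receptor of myeloid cells, by 6.83. Neither passed without 2-day male 1, 2-day female 1 or 7-day female 1, nor Clec4d without 2-day male 2, 2-day female 2 or 7-day female 2. Scores of the 7-day males were 4.31 in male 1 and 4.99 in male 2, above the other 6 arrays (-0.94 to 0.07). Male 1 carried squamous and muscle transcripts and male 2 pancreatic ones, and their part in these scores was not tested. Csf3r, the receptor for granulocyte colony-stimulating factor, did not pass, with -0.33 in males (limma adjusted p = 0.433).

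Chemokines draw these cells from the blood, and Cxcl1 and Cxcl2 act on neutrophils through Cxcr2. Cxcl1 was at -2.63 and -2.11 in the females and -4.38 and -3.13 in the males at 2 days, and at -4.06 and -4.08 in the females and 3.94 and 5.18 in the males at 7 days (difference between the sexes 10.02, SE 1.75, limma adjusted p = 0.0048). Cxcl2 was measured in both 7-day males, at 0.11 and 0.96, and was at least 112-fold higher there than in the 2-day males. Both promoters are shown because both genes moved together and carry the motif of NF-kB, a factor that inflammatory signals activate. It was searched as GGGAA and TTCC with 1 free base between them, on both strands, in the 250 bases before the start site, and the capitals mark 1 occurrence, read on the strand of the gene. Sequences are from RefSeq, build GRCm38.p6, at chr5:90891150-90891209 for Cxcl1 and chr5:90903778-90903837 for Cxcl2, both on the plus strand, written 5′ to 3′.
Cxcl1: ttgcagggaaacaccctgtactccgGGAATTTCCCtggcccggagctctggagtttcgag
Cxcl2: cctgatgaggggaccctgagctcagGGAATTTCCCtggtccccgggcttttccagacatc
The letters were found for 0.333% of the 27025 genes of the table, for 5 of the 29 chemokine and receptor genes that matched it (17.2%), and for none of 30 cytokine and 20 neutrophil genes. A match is a description of the sequence only.

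Of 39 chemokine and receptor genes tested 12 rose in males (7 without 2-day male 1) and 2 fell, where 7.37% of all genes rose and 10.1% fell. Ccl2, which attracts monocytes, was at 1.80 and 2.09 in the females and -0.06 and 0.85 in the males at 2 days, and at 0.18 and 0.12 in the females and 3.0 and 5.31 in the males at 7 days. It rose in males by 3.76 (SE 0.61, limma adjusted p = 6.1e-04) and differed between the sexes by 5.56 (adjusted p = 0.0029). Ccl28, an epithelial chemokine, fell, from 0.66 to 1.45 at 2 days to -4.10 and -2.58 in the 7-day males, with 1.17 and 1.21 in the 7-day females. Cxcl10, an interferon-induced chemokine that also holds the NF-kB letters, was lower over all mice by the threshold for DEG (-2.18, SE 0.99, limma adjusted p = 0.264).

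Of 39 cytokines and cytokine receptors 18 rose in males, against 7.37% of all genes, and 1 fell, Il18, an interleukin of epithelial cells (not without 2-day male 1). For 13 the change differed between the sexes, 12 of them upward in males against 1.56% of all genes (2 without 2-day male 1, and from 4 to 7 without any one female). Il6, interleukin 6, was not well above background in the 2-day males and was at 2.10 and 2.70 in the 7-day males, at least 408-fold higher. The 7-day females had -5.91 and -7.48, within the range of 2 days (-8.05 to -5.90). Il11, interleukin 11, a product of fibroblasts, was at -3.57 to -2.95 at 2 days, at -3.08 and -2.39 in the 7-day females and at 2.45 and 4.28 in the 7-day males (difference between the sexes 6.52, SE 1.22, limma adjusted p = 0.0066). Il1b and Osm, oncostatin M, rose in males by 5.68 and 5.01, where Il1b did not pass without 2-day male 1 (adjusted p = 0.051). Csf3, the growth factor of granulocytes, was at least 105-fold higher in the 7-day than in the 2-day males. Tnf did not pass, with -1.96 and -1.12 in the 7-day males and -2.59 to -1.28 at 2 days (limma adjusted p in males = 0.354).

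Lcn2, lipocalin 2, withholds iron from bacteria. It was at -3.62 and -3.31 in the females and -3.65 and -2.93 in the males at 2 days, and at -3.78 and -3.92 in the females and 4.77 and 5.18 in the males at 7 days. The probes of Lcn2 lie at chr2:32240199-32240258 and chr2:32241037-32241281 (mm9, as the array files give them). It rose in males by 8.27 (SE 0.80, limma adjusted p = 2.1e-05), by 8.47 without 7-day male 1 and by 8.06 without 7-day male 2. Of 23 antimicrobial and acute phase genes 5 rose in males (Lcn2, Saa3, Lbp, Hp and Lrg1), or 3 without either 2-day male or 7-day male 1, and 4 fell, or 2 without 2-day male 1 (Saa2, Lypd8, Noxo1 and Pigr, the receptor that carries IgA across the epithelium). Of all genes 7.37% rose and 10.1% fell. Hp passed with all 8 arrays only, and Saa3 not without either 2-day male or 7-day male 1. Reg3b and Reg3g, lectins of epithelium and pancreas, were at 5.81 and 5.75 in 7-day male 2, which carried pancreatic transcripts, and at -6.39 and -4.97 in 7-day male 1.

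Prostaglandins rise with inflammation, and of 24 genes of their synthesis and receptors 8 rose in males (5 without 2-day male 1), where 7.37% of all genes did, and 1 fell. Ptgs2, the inducible cyclooxygenase COX-2, was at -2.46 to -1.93 at 2 days, at -2.86 and -1.73 in the 7-day females and at 0.80 and 2.47 in the 7-day males. Ptges, which makes prostaglandin E2, rose by 2.05 in males, and Hpgd, which degrades prostaglandins, was the gene that fell (-2.99, limma adjusted p = 0.02). Hpgd had -4.76 without 7-day male 1 and -1.22 without 7-day male 2 (adjusted p = 0.264), and did not pass without either 2-day male. Of 29 complement and coagulation genes 12 rose in males (7 without 2-day male 1) and none fell, against 7.37% and 10.1% of all genes, with Plaur, the urokinase receptor, at 3.16.

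Fewer macrophage than neutrophil genes rose in males, 7 of 18 against 14 of 19, a difference that was not tested. Of 18 monocyte and macrophage genes 7 rose in males, among them Cd163 (3.55) and Fcgr4 (2.51), and 1 fell, Cx3cr1, where 7.37% of all genes rose and 10.1% fell. Cx3cr1 had -0.40 without 7-day male 1 (adjusted p = 0.539) and did not pass without either 2-day male. Without 2-day male 1 none rose, without 2-day male 2 only 2 and without 7-day male 2 only 3, and for none of the 18 did the change differ between the sexes by adjusted p. Adgre1, a surface marker of macrophages, was at -3.45 to -2.45 at 2 days and at -3.29 and -2.28 in the 7-day males. None of 14 T cell genes and 9 MHC class II genes was called in males, and of 13 B and plasma cell genes 1, Sdc1, a plasma cell marker that epithelium also carries. Sdc1 did not pass without either 2-day male or without 7-day male 1. T cell scores ranged from -1.89 to 1.92 at 2 days and from -1.25 to 1.45 at 7 days.

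**Figure D4:**
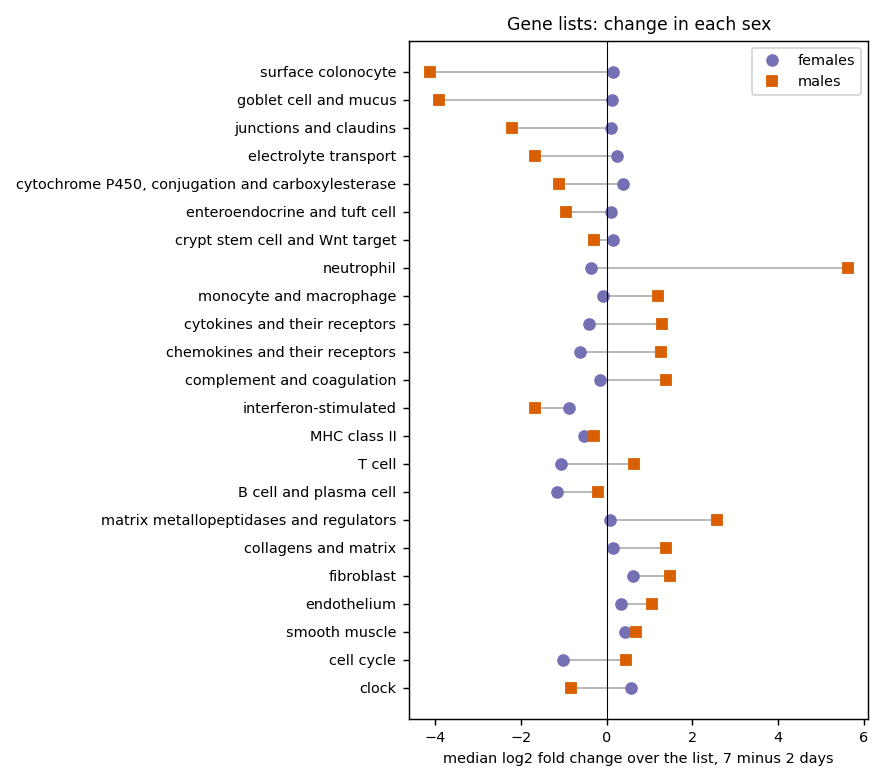
Median log2 fold change from 2 to 7 days over each gene list in females and in males. Neutrophil genes reach 5.62 in males and surface colonocyte genes -4.12, whereas interferon-stimulated genes are below 0 in both sexes.

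Of 23 matrix metallopeptidases and regulators 15 rose in males, against 7.37% of all genes, and 1 fell, Mmp15. The change of 9 differed between the sexes, 8 of them upward in males against 1.56% of all genes. Without either 2-day male 9 rose, and from 1 to 5 differed without any array other than 7-day male 1. Mmp13, a collagenase, was at -3.02 to -1.71 at 2 days, at -2.76 and -3.25 in the 7-day females and at 2.88 and 5.0 in the 7-day males (difference between the sexes 5.88, SE 0.91, limma adjusted p = 0.0029). The stromelysins Mmp3 and Mmp10 rose in males by 5.82 and 6.86, and the inhibitor Timp1 by 3.85 (not passed without 2-day male 2). Of 33 collagen and matrix genes 13 rose in males and none fell, against 7.37% and 10.1% of all genes, but only 3 and 4 rose without 2-day male 1 and male 2, and 7 and 6 without 7-day male 1 and male 2. The collagen 1 genes were not among them, with 0.77 for Col1a1 and 1.28 for Col1a2 (limma adjusted p = 0.335 and 0.105), whereas Col3a1 rose by 1.62 (not passed without either 2-day male or 7-day male 1) and Thbs1, thrombospondin 1, by 3.20.

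Of 18 fibroblast genes 11 were DEG over all mice, all up-regulated, where 7.21% of all genes were, and the medians were 1.48 in males and 0.61 in females. Without 7-day male 1, 5 were, and without 7-day male 2, 7. Dcn, decorin, was at 5.54 to 5.71 at 2 days, at 5.84 and 6.49 in the 7-day females and at 7.37 and 6.19 in the 7-day males, with no overlap between the days (log2 fold change 0.87, SE 0.26, limma adjusted p = 0.197). Pi16, a marker of adventitial fibroblasts, did not overlap either, at 0.33 to 0.94 at 2 days, 1.47 and 2.12 in the 7-day females and 4.76 and 2.85 in the 7-day males. Of 13 endothelial genes 9 were DEG, all up-regulated (5 without either 2-day female or 7-day male 1, and 3 without 7-day male 2), and 7 rose in males, against 7.37% of all genes (4 without either 2-day male or 7-day male 2). Flt1, a receptor for vascular endothelial growth factor, rose in males by 2.77 (SE 0.27, limma adjusted p = 2.1e-05), with 1.55 and 1.46 in the 7-day males and -1.21 and -1.35 in the 7-day females. None of 15 smooth muscle genes was called in males (2 without 7-day male 2).

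Interferon-stimulated genes, which cells switch on when interferon binds its receptor, had medians below 0 in both sexes, at -1.67 in males and -0.88 in females. Over all mice 13 of 29 were DEG, all down-regulated, where 6.20% of all genes were. That count rested on single arrays, with 1 DEG without 7-day male 1, 5 without either 2-day female or 7-day male 2, and 23 without 2-day male 1. In males 9 fell, against 10.1% of all genes, and none rose (3 without 2-day male 1, and 4 without 2-day male 2 or 7-day male 1), and in females none was called, although all 29 had a negative log2 fold change. The list score was 1.59 and 1.60 in the females and -0.14 and 0.89 in the males at 2 days, and 0.54 and 0.59 in the females and -1.38 and -0.55 in the males at 7 days. Male 1 of 2 days overlapped the 7-day mice, and it also had the lowest T cell score of the 2-day mice. Within the first scan day the median difference was -0.79 in the females and -1.36 in the males, and within the second -1.0 and -1.54.

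Irf1, a transcription factor of the interferon response, was at 2.67 to 3.21 at 2 days, at 2.34 and 2.44 in the 7-day females and at -0.36 and 1.29 in the 7-day males, with no overlap between the days (log2 fold change -1.49, SE 0.42, limma adjusted p = 0.197). Igtp, an interferon-induced GTPase, was lower by the threshold for DEG over all mice (-1.64, SE 0.75). The difference between the sexes passed the test for 1 of the 29, Oasl1 (-1.91, limma adjusted p = 0.047), and there only with all 8 arrays or without 7-day male 2.

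The promoters of 4 of these genes are shown with the interferon-stimulated response element, the sequence through which interferon switches on its target genes. It was searched as GAAA repeated after 2 free bases, on both strands, in the 250 bases before the start site, and the capitals mark 1 occurrence. Windows are from RefSeq, build GRCm38.p6, written 5′ to 3′ on the strand of the gene, at chr4:156200850-156200909 for Isg15 (minus strand), chr19:34640779-34640838 for Ifit1 (plus), chr11:58199497-58199555 for Igtp (plus) and chr12:26456538-26456597 for Rsad2 (minus).
Isg15: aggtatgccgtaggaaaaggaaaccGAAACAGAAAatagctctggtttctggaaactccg
Ifit1: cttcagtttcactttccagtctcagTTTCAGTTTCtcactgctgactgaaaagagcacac
Igtp: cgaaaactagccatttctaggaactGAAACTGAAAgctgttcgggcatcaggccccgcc
Rsad2: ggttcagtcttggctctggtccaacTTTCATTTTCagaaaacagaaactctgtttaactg
Of the 29 listed genes 22 matched the promoter table and 11 of these held the letters (50%), against 3.46% of the 27025 genes of the table. Isg15, a ubiquitin-like protein, was at 4.79 and 4.67 in the females and 2.30 and 3.77 in the males at 2 days, and at 4.21 and 3.77 in the females and 2.02 and 1.89 in the males at 7 days, and did not pass (-0.91, SE 0.82, limma adjusted p = 0.595).

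Cell cycle genes gave no call in either sex, with medians of 0.46 in males and -1.01 in females over 33 genes. Without 2-day male 2, 2 rose in males and 3 differed between the sexes, and without 2-day male 1, 10 were DEG and down-regulated. All 33 had a negative log2 fold change in females, and Mki67, a marker of cycling cells, was at 3.49 and 3.58 in the 2-day and 2.50 and 2.40 in the 7-day females. The 2-day males differed from each other, with scores of -0.91 and 0.35. Shares among 24 p53 target and alkylation repair genes were near or below those of all genes (7.37% and 10.1%), as 2 rose in males, Eda2r and Aen, and 1 fell, Cdkn1a, which encodes p21 (-0.93, limma adjusted p = 0.016). None of the 3 passed without 2-day male 1. Mgmt, which removes alkyl groups from guanine, had a log2 fold change of 0.20 over all mice (SE 0.19).

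Of 19 clock genes 7 fell in males and 1 rose, Nfil3, and for 7 the change differed between the sexes, where 10.1% of all genes fell in males and 1.56% and 3.91% differed upward and downward. None fell without 2-day male 1 and 2 without 7-day male 2, and from 2 to 4 differed without 2-day male 1, 2-day female 2 or either 7-day female. Dbp, a transcription factor that follows the clock, was at 1.07 and 0.23 in the females and 4.55 and 3.66 in the males at 2 days, and at 3.41 and 3.02 in the females and 0.92 and -0.30 in the males at 7 days (difference between the sexes -6.36, SE 1.15, limma adjusted p = 0.0055). The order of the sexes was thus opposite on both days. Nr1d1 and Per3 differed by -5.75 and -4.15, neither without 2-day male 1, and Nr1d1 only with all 8 arrays or without 2-day male 2 or 7-day male 1. The hour at which each mouse was sampled is not given in the sources used here.

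Blood and liver transcripts are set against the 7.21% of all genes that were DEG upward and the 6.20% downward. The 5 erythrocyte genes tested were DEG and up-regulated (none without 7-day male 1 or 2-day female 2, 1 without 2-day female 1 and 2 without 7-day male 2), with scores of -1.63 to 0.64 at 2 days and of -0.30 to 2.33 at 7 days. Liver genes had scores of 0.59 to 2.89 at 2 days and of -0.95 to 0.06 at 7 days, and 3 of 8 were DEG and down-regulated (1 without 2-day female 2, 2-day male 1 or 7-day male 2). Of 14 skeletal muscle genes 11 were DEG and up-regulated (1 without 7-day male 1), with 7-day male 1 and female 2 high. The part of these transcripts in the other results was not tested.

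**Figure D5:**
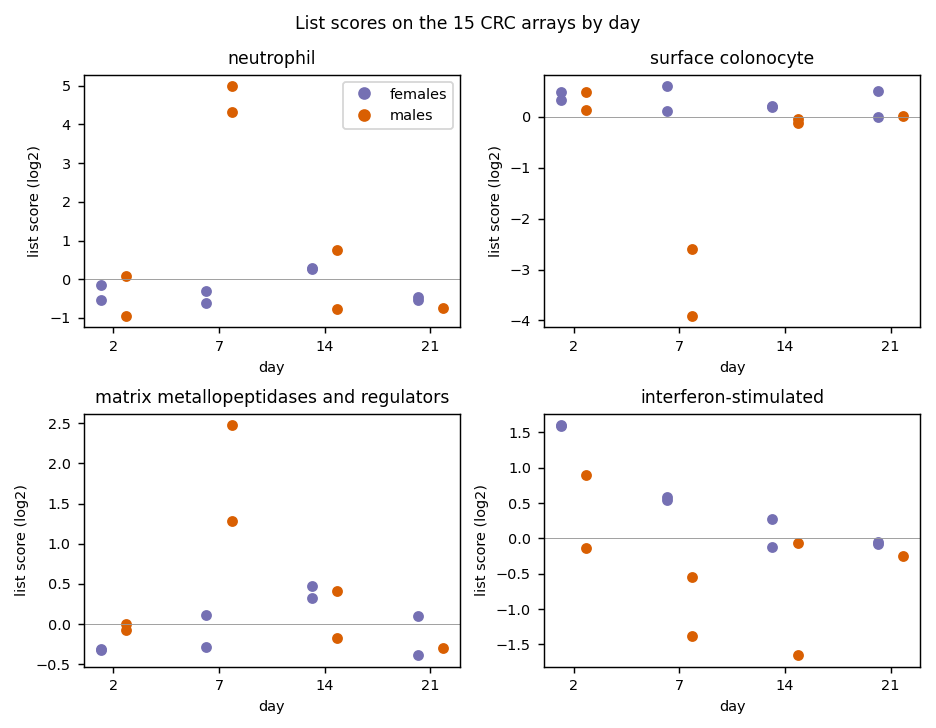
List scores (log2) of the 15 CRC arrays at 2, 7, 14 and 21 days for 4 gene lists, females and males by label in separate colours. An array labelled male at 14 days had Xist at the level of the females. The 7-day males lie apart in neutrophil genes, at 4.31 and 4.99, where the arrays of 14 and 21 days lie between -0.77 and 0.77.

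For 14 and 21 days only levels and scores are given, since differences from 2 days would share the 2-day arrays with this comparison. Neutrophil scores of CRC mice ranged from -0.77 to 0.77 at 14 days and from -0.74 to -0.45 at 21 days, and surface colonocyte scores from -0.12 to 0.22 and from 0.00 to 0.50. Aqp8 had a median level of 5.36 at 14 days and 5.99 at 21 days. Scores of interferon-stimulated genes ranged from -1.65 to 0.27 at 14 days and from -0.25 to -0.05 at 21 days. One array labelled male at 14 days had Xist at the level of the females, so the sexes are not compared there. It entered the fit by sex under its label, and without it 946 genes differed between the sexes from 2 to 7 days and 3288 were called in males.

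Whether the change from 2 to 7 days differed in mice that also received E171 was tested as an interaction. For 0 genes (0%) did it differ after adjustment (limma, smallest adjusted p = 0.644), and 1376 had an unadjusted p under 0.05. Without the 3 CRC arrays of these days with pancreatic transcripts 22 genes were called. That fit kept only female 2 and male 1 of the 7-day CRC mice. It also kept a CRC + E171 array of 2 days with a pancreatic score of 10.51. In CRC + E171 mice the median change was -0.23 for neutrophil genes and 0.19 for surface colonocyte genes, against 2.16 and -2.18 in CRC mice. By sex, CRC + E171 males had 0.31 and 0.0022 and CRC + E171 females -0.76 and 0.32. From 2 to 7 days 0 genes were called in CRC + E171 males and 0 in CRC + E171 females, so the changes of the CRC males rest on the 2 CRC males of 7 days. The values of CRC mice combine 5.62 and -4.12 in males with -0.36 and 0.15 in females, and over the alternatives ranged from -0.04 to 3.37 and from -2.94 to -0.34. The 4 arrays of CRC + E171 mice at 7 days had neutrophil scores of -1.01 to 0.57, below both 7-day CRC males, and Lcn2 levels of -3.64 to -1.51.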

How the data were processed

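Gene expression in the distal colon came from Agilent arrays of one colour, with 1 array for each mouse. The authors deposited the scanner output of Feature Extraction 10.7.3.1, whose processed signal is an intensity after background subtraction and detrending, with a surrogate value for spots that do not exceed background. A table of the authors' own values, log2 after flag filters, imputation and a normalization whose method is not given in the sources used here, was also deposited and served as an alternative only. Its columns were set by array.

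The main setting was log2 of the processed signal minus the 75th percentile of each array over the probes other than controls. Probes were kept if well above background on at least 60% of the arrays of a group with a mean log2 signal of at least 4, which left 42787 of 56605. Genes were named through RefSeq, where 34344 of the kept probes matched, and probes of one gene were averaged, which gave 19797 genes. A gene without signal well above background in a group has only a bound there, and its fold is given as at least the mean of the brighter group against the lowest signal well above background. Tests used limma 3.58.1 in R 4.3.3, with 8 groups for the days and the E171 interaction, and 16 groups by sex for the sexes, with Benjamini-Hochberg adjustment. Replicates are separate mice. Array number limits the precision.

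The text names the 10 largest increases and decreases called, filled from DEG without overlap since none was called, the leading genes of each list and up to 4 of the largest changes in a list. Some genes that this rule selects are not reported here. Any other gene was chosen after its values were seen. The members and the gene lists were chosen with earlier results of these data known. The fit was tested on simulated data. Of 50 genes with a simulated log2 change of 4, 88% were called for 7 against 2 days and 72% for the difference between the sexes. Of the unchanged genes 12 and 6 were called. The simulation gave a gene the same spread in all groups, independent of other genes, and the same change on every changed array. The measured spread was unequal, as for Cxcl2 with an SD of 4.80 at 7 days and 0.25 at 2 days. These shares therefore do not carry over to such genes. Alternatives covered normalization, background, probe filter, probes per gene, arrays fitted, sex, blocks, variance and each array left out.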

Additional observations from a re-analysis of the deposited data

Results flagged for a closer look

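Of 128 groups of 4 arrays examined, 5 held an array far from the others by Dixon's criterion, which chance gives in about 1 of 20 groups. The list score of antimicrobial and acute phase genes at 2 days was 0.17 in female 1 and from -0.01 to 0.01 in the other mice, a gap of 0.908 of the range. At 7 days male 1 stood apart in Elovl4 (5.41 against -5.15 to -3.50, gap 0.844) and in Cst6 (7.34 against -3.32 to -2.82, gap 0.953). Ms4a12, a membrane protein of the colonic epithelium, was at 1.95 in male 1 and from 0.62 to 0.83 in the others at 2 days (gap 0.838), and at -5.52 in male 1 and from -0.14 to 0.20 in the others at 7 days (gap 0.940).

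The change from 2 to 7 days differed between the sexes for 1084 genes in limma. Among the 20 genes with the largest changes these were Cxcl2, with a fitted change in males minus females of 8.35 that rests on signals at background in the 2-day mice and 7-day females, Sectm1b with -6.76, Capn13, a calpain of the gut, with -4.17, and Pla2g2c, a secreted phospholipase, with -3.34, where 1 of the 7-day males was at background. Of these only Sectm1b passed whichever of the 8 arrays was left out.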

How the results depend on the processing

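No gene was called over both sexes under quantile normalization, normexp, the authors' values or any change of the filter on dim probes. With array weights 1 was called, without the 3 arrays with pancreatic transcripts 77, within the first scan day 2 and within the second 15, and 0 to 1582 when single arrays were left out. Leaving out those 3 arrays (7-day female 1, 7-day male 2 and 2-day male 2) kept only female 2 and male 1 at 7 days. The 77 rest on these, and male 1 had squamous and muscle scores of 7.43. The 2656 DEG became 705 at a log2 fold change of 1.5, 1033 with only the 8 arrays, 1393 with array weights and 1289 within the second scan day, and 853 to 4348 when single arrays were left out. The 1084 genes that differed between the sexes became 700 with only the 8 arrays, and 173 to 1825 when single arrays were left out. In males the 3458 called became 1530 with array weights and 1179 to 4071 with single arrays left out. In females the count was 5 without the arrays with pancreatic transcripts and 0 to 1 with single arrays left out. For the E171 interaction the count was 22 without those 3 CRC arrays, while a CRC + E171 array of 2 days with a pancreatic score of 10.51 stayed in. The cause of these shifts was not tested. All alternatives for males or females alone, those for the difference between the sexes other than normalization, normexp, the authors' values, no filter, array weights and single arrays, those for E171 under the stricter filter or the brightest probe, and those on pancreatic arrays, the array of 14 days and other-tissue genes were chosen after seeing the data.

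Mice of both days share sex and replicate numbers, but same-numbered arrays deviated from their group means with correlations of 0.0985, 0.0145, 0.101 and 0.241, so the numbers were not taken as pairs. On these 8 arrays the number also marks the scan day. With the replicate block 0 genes were called, 2762 were DEG, 1115 differed between the sexes and 3499 were called in males. Without the genes of the other tissue lists the last 3 counts were 2637, 1089 and 3471. The 20 named genes kept their direction in all 552 values and passed less often in 65. They were chosen for no overlap between the days, so leaving out an array or splitting by scan day could not reverse them. Of 1197 list medians 16 moved by more than the spread between replicates and 50 changed sign. Genes not well above background limit the folds to bounds.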
